A study of Mus musculus with 2 samples.

Results

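The 10 genes described here are Gli1, Gli2, Gli3, Ptch1 and Smo of the Hedgehog pathway, the forkhead genes Foxl1, Foxf1 and Foxf2, and the platelet-derived growth factor (PDGF) receptor genes Pdgfra and Pdgfrb. They were chosen by name, as genes that mark the mesenchyme under the gut epithelium, out of 22180 genes that the array measured through a probeset paired with a single gene, and each had 1 such probeset. The arrays hold RNA of cultured subepithelial myofibroblasts, contractile and matrix-producing stromal cells, from the small intestine of wild-type mice of the BALB/c strain. The stimulated cells had been exposed for 1 day to homogenised intestinal eosinophils (5 mg/ml), and the non-stimulated cells were cultured without them. The RNA of 3 cultures per condition was pooled before labelling, so that each condition has 1 array and no difference below has a replicate error or a test. The labels do not give the number of mice behind the cultures.

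In the gut, Hedgehog proteins are made by the epithelium and received by the stroma. PTCH1 holds the membrane protein SMO inactive until a Hedgehog ligand binds it, SMO then acts at the primary cilium, and the GLI zinc-finger factors carry the signal to the genome. Foxf1, Foxf2 and Foxl1 are forkhead genes that answer to this signal in gut mesenchyme and shape what the stroma sends back to the epithelium. PDGFRA and PDGFRB are receptor tyrosine kinases, of which the first marks subepithelial fibroblasts, including cells that lie close against the epithelium, and the second marks pericytes and many fibroblasts.

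Of the 10 genes, 9 lay above background on both arrays. As background served the value under which 95% of 1407 olfactory and vomeronasal receptor probesets fell, 5.57 on the stimulated and 5.58 on the non-stimulated array on the log2 scale. Pdgfra was 1.47-fold higher in stimulated cells, and none of the other 8 genes above background reached a 1.2-fold difference, a size that 13.0% of all 14068 genes above background reached in either direction. Ptch1 came nearest to it, at 1.18-fold lower. Gli1 was under background on both arrays.

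**Figure D1:**
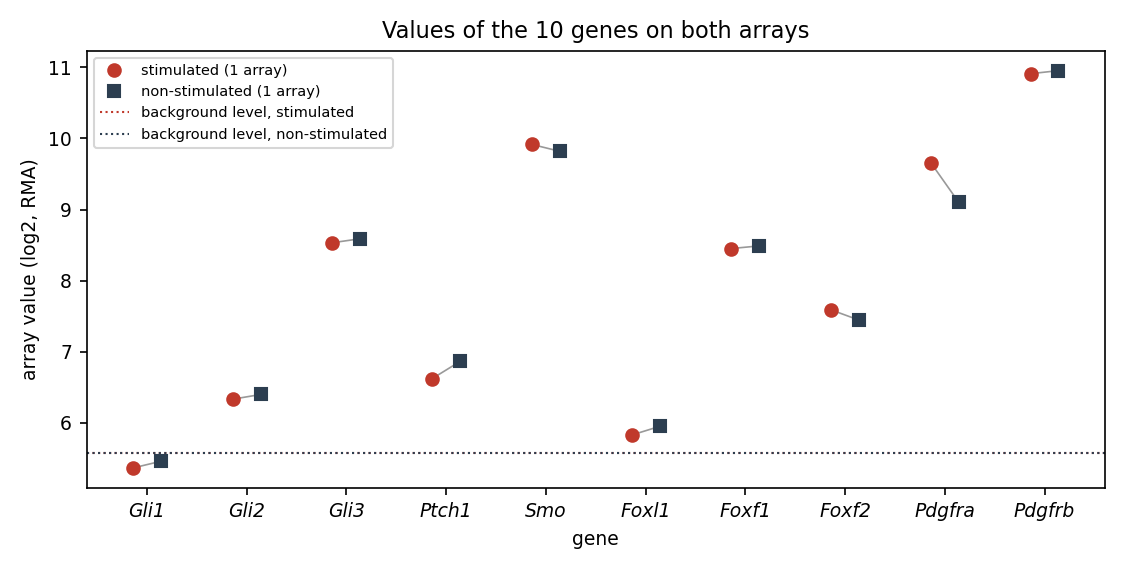
Array values (log2, vertical axis) of the 10 genes on the stimulated array (red circles) and the non-stimulated array (dark squares), with dotted lines at the background levels of 5.57 and 5.58, which lie on top of each other at this scale. Gli1 sits under the lines on both arrays, and Pdgfra shows the widest step between the arrays.

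Pdgfra read 9.66 on the stimulated array and 9.10 on the non-stimulated array, a difference (stimulated minus non-stimulated) of 0.56 on the log2 scale. Genes above background were split into 4 equal classes by mean expression. Of the 3516 other genes in the class of Pdgfra, the brightest, the central 95% had differences from -0.25 to 0.29, and 36 genes (1.02%) differed by at least as much as Pdgfra in either direction. Pdgfra lay outside that range, and the other 8 genes above background lay inside the ranges of their own classes. The sister receptor gene Pdgfrb read 10.91 on the stimulated and 10.96 on the non-stimulated array, a difference of -0.04, so that the differences of both receptor genes were 0.60 apart. In bulk RNA, a larger share of cells of a type and more RNA per cell cannot be told apart.

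Sequence is shown for the genes with the largest difference in each direction among those above background, Pdgfra and Ptch1. Each line gives the 250 bases before the transcription start that RefSeq's promoter table (GRCm38.p6) holds for the gene, 5′ to 3′ on the gene's strand. For Pdgfra these are chr5:75152001-75152250 on the plus strand, and the capitals mark the match to a C/EBP motif (TTGCNNAA, either strand). For Ptch1 they are chr13:63565736-63565985 on the minus strand, and the capitals mark the match to the Sp1 motif GGGCGG, read on either strand.
Pdgfra: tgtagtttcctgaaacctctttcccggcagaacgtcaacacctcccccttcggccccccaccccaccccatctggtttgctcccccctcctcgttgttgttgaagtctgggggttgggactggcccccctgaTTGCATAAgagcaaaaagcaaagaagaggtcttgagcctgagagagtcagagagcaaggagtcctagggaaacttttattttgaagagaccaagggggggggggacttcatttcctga
Ptch1: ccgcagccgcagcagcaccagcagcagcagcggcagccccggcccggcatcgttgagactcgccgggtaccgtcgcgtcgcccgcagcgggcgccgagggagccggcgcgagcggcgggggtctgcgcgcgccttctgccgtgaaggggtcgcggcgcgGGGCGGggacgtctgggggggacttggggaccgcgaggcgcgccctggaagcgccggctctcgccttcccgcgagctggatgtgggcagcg

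The Pdgfra match begins 118 bases before the start, and the Ptch1 match 91 bases before it. Promoters of 6 of the 10 genes were matched in the table by symbol, and the C/EBP letters were in 3 of them (Gli2, Gli3 and Pdgfra), against 9.56% of all 32851 promoter windows of the same length. The Sp1 letters were in 4 of the 6 (Gli2, Gli3, Foxf2 and Ptch1), against 32.7% of all windows, and no match of either motif overlapped a match of the other. The consensus GACCACCCA, which GLI factors bind, was in none of the 6 windows on either strand and in 0.225% of all windows, and its shorter core CCACCCA was also in none, against 8.11%. The forkhead letters TGTTTA (3952 of 32851 windows) and the NF-kB letters GGGNNTTCC (4.98%) were in none of the 6 either. A match is a run of letters and no evidence of binding, and a missing match says nothing of sites outside these windows.

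PDGF ligand genes, whose products activate these receptors, showed no difference of 1.5-fold, a size that 1.44% of all genes above background reached. All 7 genes for ligands and the proteases that release them were above background, 2 higher and 5 lower, with a median difference of -0.02. Of all genes above background, 50.2% were higher and 48.2% lower. Pdgfd, a ligand that acts mainly through PDGFRB, read 7.47 and 7.81 on the stimulated and the non-stimulated array and was 1.27-fold lower. Pdgfb read 6.76 on the stimulated and 6.90 on the non-stimulated array (-0.14) and Pdgfc read 9.76 and 9.83 in the same order of arrays (-0.07), while Plat, the protease that activates PDGF-CC, differed by 0.06. Pdgfd was the furthest of these 7 from 0, and the only 1 of them past 1.2-fold, as 13.0% of all genes above background were. At -0.34 it lay under the lower limit of the central 95% of its class, -0.29.

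Among 20 genes for proteins that bind or switch off activated PDGF receptors, 13 lay higher and 7 lay lower, and the median was 0.06. All genes above background had a median of 0.00, with 50.2% higher and 48.2% lower. Ptpn2, a tyrosine phosphatase that dephosphorylates growth factor receptors, read 8.30 on the stimulated and 7.92 on the non-stimulated array (1.31-fold higher). Rasa1, the GTPase-activating protein that docks on PDGFRB and turns RAS off, read 10.29 on the stimulated and 9.97 on the non-stimulated array (1.25-fold higher). Both were at least 1.2-fold higher, as were 6.11% of all genes above background. Ptpn2 and Rasa1 also lay over the upper limits of the central 95% of their classes, 0.32 and 0.29. The adaptor gene Gab1 differed by -0.20 and the kinase gene Src by -0.19. Pdgfrl, which encodes a protein related to the receptors' ligand-binding part, differed by -0.09, and the related receptor genes Kit, Csf1r and Flt3 were under background on both arrays.

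The signal receivers of the Hedgehog pathway, Ptch1 and Smo, went opposite ways by small amounts. Ptch1, which is both the receptor and a target of the pathway, read 6.62 on the stimulated array and 6.86 on the non-stimulated array, a difference of -0.24. In its class of expression 17.3% of the genes differed by as much in either direction. Smo read 9.92 on the stimulated and 9.82 on the non-stimulated array, a difference of 0.10 that 36.5% of the genes in its class reached. Both genes were closer to 0 than the limits of the central 95%, which were -0.39 and 0.36 for the class of Ptch1 and -0.25 and 0.29 for that of Smo.

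The 3 Gli genes differed little or were too dim to compare. Gli1, a transcriptional activator whose own expression is a standard readout of Hedgehog signalling, read 5.36 on the stimulated and 5.46 on the non-stimulated array. Both values are under background, so no difference is given for it. Gli2, the main activator, read 6.33 on the stimulated and 6.40 on the non-stimulated array, a difference of -0.07. Gli3, which acts mostly as a repressor where the pathway is off, read 8.53 on the stimulated and 8.59 on the non-stimulated array, a difference of -0.06. Differences of this size or more were seen in 69.3% and 64.5% of the genes in the classes of Gli2 and Gli3.

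**Figure D2:**
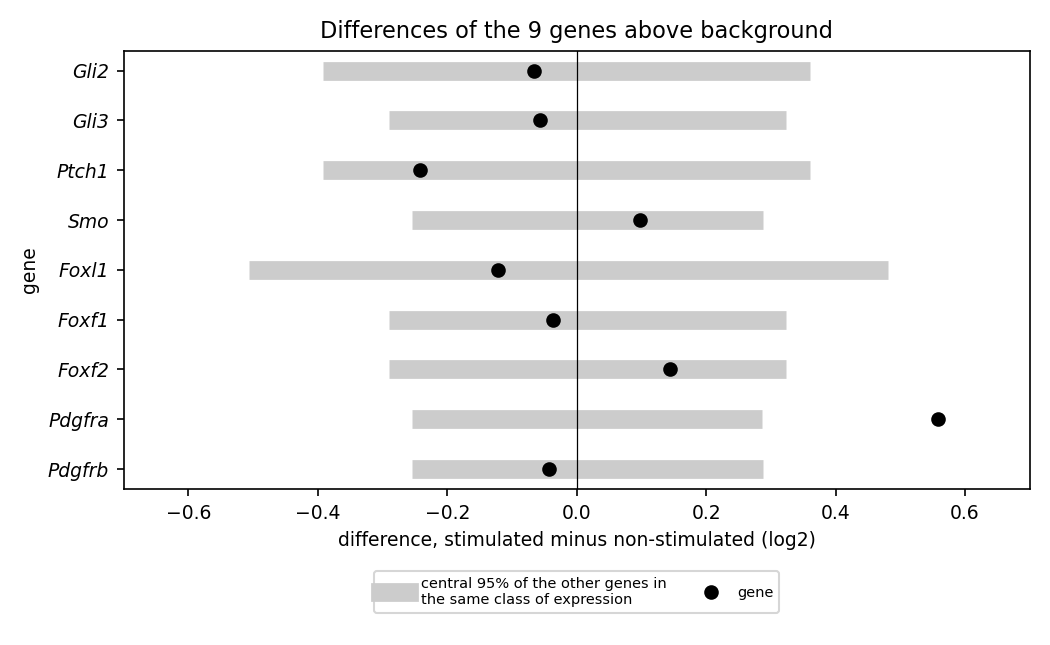
Difference between the arrays (stimulated minus non-stimulated, log2, horizontal axis) of the 9 genes above background (points), with grey bars for the central 95% of the differences of all other genes in the same class of mean expression. Pdgfra lies at 0.56, to the right of its bar, and the other 8 points lie on theirs.

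Other parts of the Hedgehog pathway were measured beside these genes. Of 8 genes for ligands and their release, 6 were above background, 2 of them higher, 3 lower and 1 with the same value on both arrays, with a median of -0.03. The shares over all genes above background were 50.2% higher and 48.2% lower. Ihh, the main Hedgehog ligand of the intestinal epithelium, read 7.32 on the stimulated and 7.42 on the non-stimulated array, and Shh was under background on both. Disp1, which releases the lipid-bearing ligand, differed by -0.19, and Scube3 and Scube1, of a family that helps this release, differed by 0.15 and 0.12. A second Scube3 probeset went the other way, by -0.23. The epithelial marker Epcam was under background on both arrays (4.49 on the stimulated and 4.35 on the non-stimulated array), and 3 of 7 epithelial markers were above it, among them Cdh1 at 5.86 and 6.05 in the same order of arrays.

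Boc, a co-receptor that presents Hedgehog to PTCH1, read 7.52 on the stimulated and 7.82 on the non-stimulated array and was 1.24-fold lower. The other co-receptor genes above background, Gas1 and Cdon, differed by 0.11 and 0.10. Hhip, a decoy receptor and target of the pathway, was under background on both arrays. Boc was the single gene of these 3 at least 1.2-fold lower, as were 6.91% of all genes above background. At -0.31 it lay under the lower limit of the central 95% of its class, -0.29.

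Of 18 measured genes between SMO and the GLI factors, all were above background, 10 higher and 8 lower, with a median of 0.02. The shares over all genes above background were 50.2% higher and 48.2% lower. Sufu, the main brake on the GLI factors, differed by 0.01. Kif7, a ciliary kinesin that organises them, was 1.21-fold lower through its brighter probeset and differed by 0.29 in the other direction through its second. Stk36, Btrc and Prkacb differed by 0.17, 0.15 and -0.14. Grk2 was not analysed here. Of 34 genes of the primary cilium, all above background, 20 lay higher and 14 lay lower, against the same shares of 50.2% and 48.2%. The median of the 34 was 0.03. Bbs1 was the single one past 1.2-fold in either direction, at 1.24-fold higher, where 13.0% of all genes above background were past it. Bbs5, Ift80 and Dync2li1 followed at -0.21, 0.19 and -0.19.

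Of 5 other target genes above background, 4 were lower and 1 higher, where 48.2% of all genes above background were lower. The median of the 5 was -0.12. Bmp4, a stromal growth factor gene that Hedgehog induces in gut mesenchyme, read 7.47 on the stimulated and 8.44 on the non-stimulated array and was 1.96-fold lower. The cell cycle genes Ccnd1 and Ccnd2 differed by -0.13 and -0.10, the survival gene Bcl2 by -0.12, and Sfrp1, a secreted Wnt antagonist, by 0.09. Bmp4 was thus far from the rest of its list, and under the lower limit of the central 95% of its class, -0.29. It was the single gene of the list past 1.5-fold, as 1.44% of all genes above background were. Among relatives of the GLI factors, Glis1, Glis3 and Zic5 differed by 0.22, 0.22 and 0.25 and Glis2 by -0.12, and 3 Zic genes were under background. Zic5 was close to background, at 5.90 on the stimulated and 5.66 on the non-stimulated array. A second Zic5 probeset, under background on both arrays, went the other way, by -0.10.

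**Figure D3:**
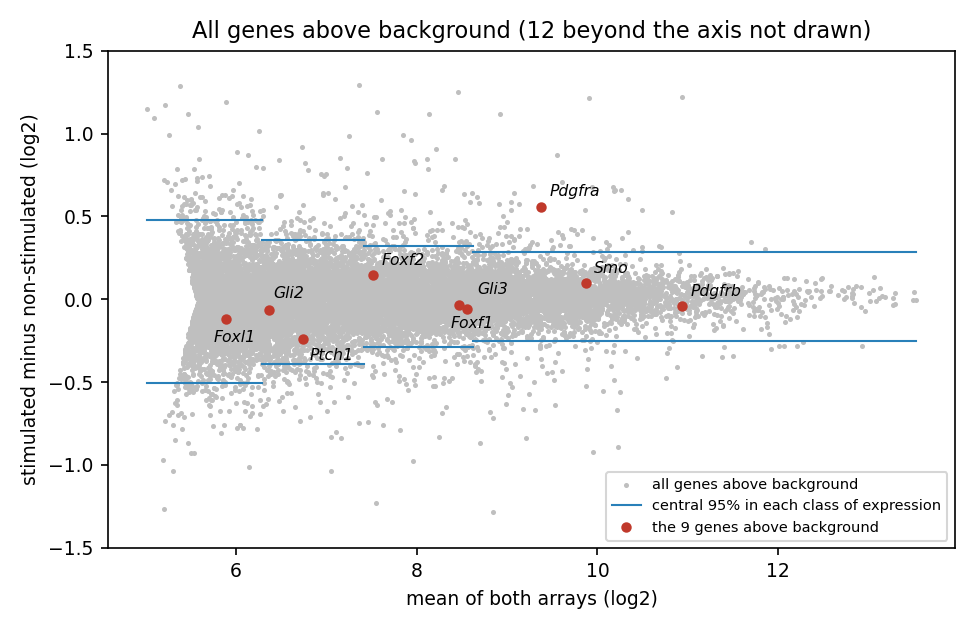
Difference (stimulated minus non-stimulated, log2, vertical axis) against the mean of both arrays (log2, horizontal axis) for the genes above background (grey), with the 9 described genes in red and blue lines at the limits of the central 95% in each class of expression. Pdgfra at 0.56 stands above the upper line of its class, at 0.29, and 12 genes beyond the vertical axis are not drawn.

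Of the forkhead genes, Foxf1 and Foxf2 were clearly above background and Foxl1 was close to it. Foxf1, required for gut mesenchyme to form, read 8.45 on the stimulated and 8.49 on the non-stimulated array, a difference of -0.04. Foxf2, its close relative, read 7.59 on the stimulated and 7.44 on the non-stimulated array, a difference of 0.14. In their shared class 75.5% and 26.6% of the genes differed by as much as Foxf1 and Foxf2. Foxl1, a marker of the subepithelial cells that supply Wnt signals to crypts, read 5.83 on the stimulated and 5.95 on the non-stimulated array, which is 0.26 and 0.37 over the background levels, and it differed by -0.12. Its class was the dimmest, where 58.8% of the genes differed by as much.

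The other forkhead genes also centred close to 0. Of 40 on the array 33 were above background, 17 higher, 15 lower and 1 equal on both arrays, with a median of 0.01. The shares over all genes above background were 50.2% higher and 48.2% lower. None of the 33 was past 1.5-fold, as 1.44% of all genes above background were. On each array 31 were above background. Foxb1 and Foxp3 passed only on the stimulated array, and Foxd2 and Foxr1 only on the non-stimulated array. Each of them read higher on the array where it passed, so the filter fixed its direction in these counts. Foxs1, a forkhead gene known from perivascular and neural crest cells, was 1.22-fold lower, at 5.95 on the stimulated and 6.23 on the non-stimulated array. Foxi3, Foxp2 and Foxa3 followed at -0.25, -0.24 and -0.23, and Foxi3 was close to background, at 5.68 on the stimulated and 5.93 on the non-stimulated array. Foxf1 and Foxl1 lie in one cluster of forkhead genes on chromosome 8 of the mouse with Foxc2 between them, and Foxc2 differed by -0.08.

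Of 17 other transcription factors of gut mesenchyme above background, 11 were lower and 6 higher, where 48.2% of all genes above background were lower. Their median was -0.10, and it was -0.03 with the background level set at the 99th percentile of the receptor probesets. Tcf21 and Twist2, both among the 11, passed the filter through their non-stimulated value alone. The filter thus fixed their direction in these counts and in the median of -0.10. Twist2 read 5.39 in stimulated and 5.65 in non-stimulated cells. Osr1, a zinc-finger factor of embryonic and fibroblast mesenchyme, read 8.85 on the stimulated and 9.51 on the non-stimulated array and was 1.58-fold lower. Nkx2-3, a homeobox factor of intestinal stroma, read 6.66 on the stimulated and 7.07 on the non-stimulated array (1.33-fold lower), and Meis2 was 1.21-fold lower. Tcf21, a factor of visceral mesenchyme, was under background on the stimulated array, at 5.40 there and 5.70 on the non-stimulated array. Its measured values made it 1 of 4 genes of the list past 1.2-fold, all lower, as were 6.91% of all genes above background, but against the background level of the stimulated array it was only at least 1.10-fold lower. The other 3, Osr1, Nkx2-3 and Meis2, were above background on both arrays. These 3 lay under the lower limits of the central 95% of their classes. Zeb2 was not analysed here.

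Markers of the stromal subsets that PDGFRA levels separate in the gut differed by less than Pdgfra did where they were above background. Of 8 markers above background for subepithelial cells rich in PDGFRA, 6 were lower, 1 was higher and 1 was equal on both arrays. None was past 1.2-fold. Of all genes above background, 48.2% were lower and 13.0% were past 1.2-fold in either direction. The median of the 8 markers was -0.11, and -0.05 with the background level at the 99th percentile. Bmp3, Edn3 and Bmp7, genes for secreted signals, differed by -0.26, -0.24 and -0.13, and Wnt5a, a stromal Wnt ligand, read 8.25 on the stimulated and 8.50 on the non-stimulated array (-0.25). Of 4 markers above background for stroma poor in PDGFRA, 3 lay higher and 1 lay lower. Their median was 0.07, and it turned to -0.01 with no background filter. Cd34, Sfrp1 and Grem1 (a BMP antagonist) differed by 0.12, 0.09 and 0.05, and Cd81 by -0.07. Ackr4 and Pi16 of that list were under background on both arrays, and C3 was not analysed here.

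**Figure D4:**
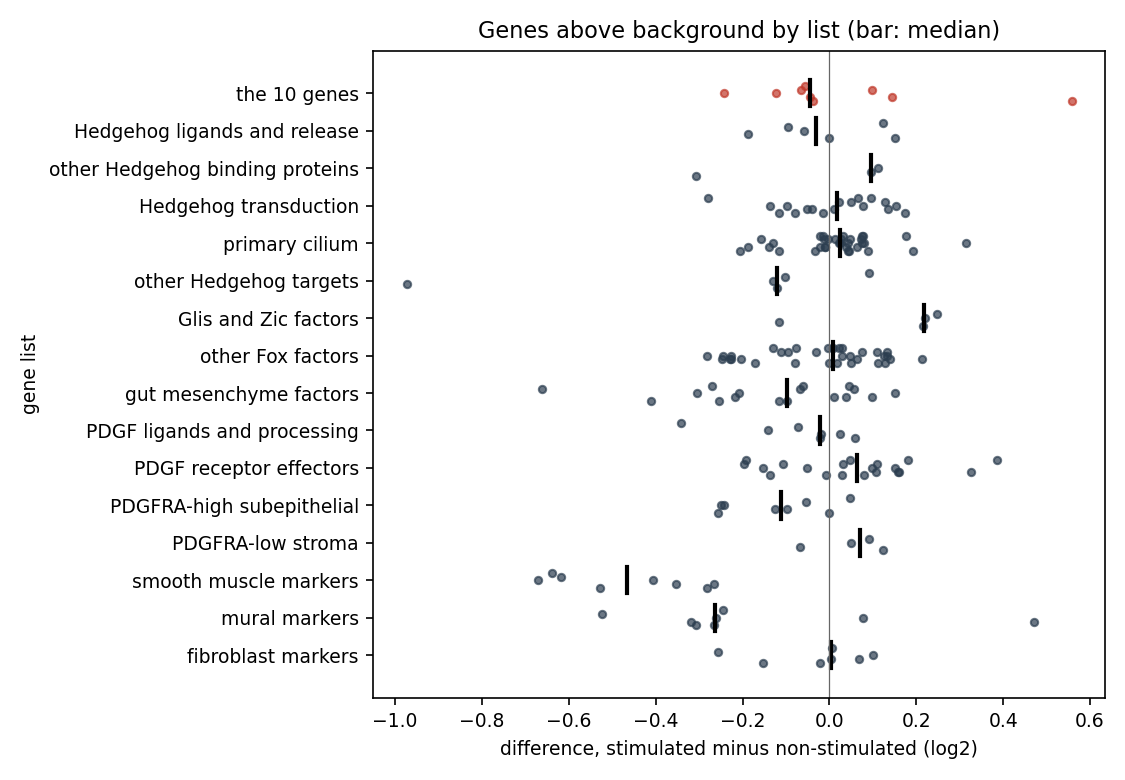
Differences (stimulated minus non-stimulated, log2, horizontal axis) of all genes above background in the lists named in the text (rows), 1 point a gene, with a black bar at each list's median. The described genes (red) centre on -0.04 with Pdgfra far to the right, and the smooth muscle markers all lie left of 0.

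The arrays carried fibroblast transcripts, and eosinophil markers stayed under background, although a label field names eosinophils as the source of both samples. All 7 fibroblast markers were above background with a median difference of 0.00 (Col1a1 at 12.83 and Col1a2 at 11.85 on the stimulated array, against 12.85 and 11.85 on the non-stimulated array), and all 5 eosinophil markers were under it, with Epx at 5.25 and Prg2 at 4.32 on the stimulated array, against 4.73 and 4.75 on the non-stimulated array. The 8 smooth muscle markers were all lower, as were 48.2% of all genes above background. Their median was -0.47, and their mean array value was 9.15 on the stimulated and 9.62 on the non-stimulated array. Acta2 differed by -0.28 and Myh11 by -0.53. Of 8 mural markers above background 6 were lower and 2 higher, with a median of -0.26. Rgs5 differed by -0.26 and Cspg4 by -0.32, while Kcnj8 differed by 0.08. Outside the central 95% of their classes lay 7 of the 8 smooth muscle and 2 of the 8 mural markers. Rgs4 read 5.95 on the stimulated array and 5.48, under background, on the non-stimulated array, so that it was at least 1.29-fold higher. Rgs4 and Ndufa4l2 passed only on the array where they read higher, so the filter fixed their direction. The mean over all 9 mural markers was 6.61 on the stimulated and 6.77 on the non-stimulated array. The part of these shifts in the Pdgfra value was not tested. Of markers of other cells, 2 of 4 endothelial ones were above background (Pecam1 differed by -0.04, and Cdh5 was under it), as was 1 of 3 of interstitial cells of Cajal (Kit and Ano1 were under it). Both glial markers measured were above background, with Sox10 at 8.05 on the stimulated and 8.22 on the non-stimulated array. Of 3 leukocyte markers 2 were above it, and Ptprc was under it. Cd53 was in the brightest class, at 9.56 on the stimulated and 9.73 on the non-stimulated array, a difference of -0.17.

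Over all 9 genes above background, 3 were higher (Smo, Foxf2 and Pdgfra) and 6 lower, with a median of -0.04, where 50.2% of all genes above background were higher and 48.2% lower. The median size of their differences was 0.10, and over all genes it was also 0.10. None reached 2-fold, as 0.235% of all genes above background did, none reached 1.5-fold, as 1.44% did, and 1 of 9, Pdgfra, reached 1.2-fold, as 13.0% did. The count of 1 in 9 is close to that share. In its own class of expression, 1.02% of the genes differed by as much as Pdgfra. Pdgfra has the largest difference of the 9, so this share does not measure how unusual such a gene is among 9. It was also the 1 of 9 outside the central 95% of its class, a range that leaves some genes outside by construction.

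The genes beside the described ones on the chromosome were also measured. The 2 nearest measured genes on each side of every described gene, a rule chosen after the values were seen, gave 38 other genes. Above background were 24 of them, 13 higher and 11 lower, with a median of 0.01. The shares over all genes above background were 50.2% higher and 48.2% lower. Arhgap9 and Tspan33, both among the 11, passed only on the non-stimulated array, where they read higher. The filter thus fixed their direction in these counts and in the median. Beside Pdgfra, the homeobox gene Gsx2 read 5.85 on the stimulated and 5.99 on the non-stimulated array, Kit was under background, and the endothelial receptor gene Kdr differed by -0.07. Beside Foxf1, the long non-coding RNA gene Fendrr, which shares its promoter region, read 5.68 on the stimulated and 5.87 on the non-stimulated array (-0.20). None of the 24 was past 1.5-fold, as 1.44% of all genes above background were, and the measured values of 2 were past 1.2-fold, as 13.0% were. Irf8, beside Foxf1, differed by 0.30 and was above background on both arrays. Tspan33, beside Smo, read 5.34 on the stimulated array, which is under background, and 5.72 on the non-stimulated array, so that it was at least 1.11-fold lower. Arhgap9, beside Gli1, read 5.51, under background, on the stimulated and 5.70 on the non-stimulated array, at least 1.10-fold lower.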

How the data were processed

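The array was the GeneChip Mouse Gene 2.0 ST, hybridised once per condition with RNA of cultured mouse myofibroblasts. The authors deposited 1 log2 value per probeset and array, made with RMA in Affymetrix Expression Console per the submitters' processing notes, which name no version. Sorted, the values of the arrays lie within 0.0757 of each other, as after quantile normalization, so that differences are relative to all other probesets. The platform annotation pairs 23521 of 41345 probesets with a single gene, and 1814 with several genes and 16010 with none were left out. Of the 23521, 23328 matched RefSeq gene IDs (GRCm38.p6), which gave current symbols. The probeset with the highest mean stood for each of 1082 genes with several. Genes above background on at least 1 array (14068) were compared, and split into 4 equal classes by mean value.

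Differences are stimulated minus non-stimulated; a fold is 2 to the power of their size. With 1 array per condition there is no test, and the number of arrays limits the precision. A gene's level cannot be set against another's. The genes and lists were chosen with earlier results of these data known. Beside the 10 genes, the text names up to 4 genes of each pathway list and of the forkhead family with the largest differences above background, every gene of those lists past 1.5-fold, and the first 2 genes of each marker list. Further genes (list members under background on at least 1 array or not analysed, Sufu, Foxc2, Kcnj8 and chromosomal neighbours) were named after their values were seen. The same holds for Dhh and Sox6. With 2 arrays no likeness of patterns across samples can be measured. Calculations used Python 3.11.15 and pandas 2.3.3 and were tested on simulated data. Alternatives were another background level, no filter, the mean of probesets, 2 centrings (median; lowess with a fraction of 0.3), values raised to background and other fold thresholds.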

Additional observations from a re-analysis of the deposited data

How the results depend on the processing

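The differences of the 10 genes were computed under 6 alternatives: a background level at the 99th percentile, no background filter, the mean of a gene's probesets, centring on the median or on a lowess trend, and values under background raised to that level. Each gene has 1 probeset, so 3 of these (both background settings and the mean of probesets) leave its difference as it is by construction. Raising values to background touched 1 gene, Gli1, by 0.08, and only the 2 centrings could move the other 9, which they did by at most 0.02 and without a change of sign. Pdgfra stayed between 0.54 and 0.56, and the median of the genes above background between -0.05 and -0.04. At a threshold of 1.2-fold 1 gene was past it, against 0 at 2-fold and 0 at 1.5-fold. With the background level at the 99th percentile (6.65 on the stimulated and 6.80 on the non-stimulated array), 7 of the 10 genes passed it on an array or more, and 6 passed on both. Gli2 and Foxl1 then joined Gli1 under background, and Ptch1 was above it on the non-stimulated array alone. Medians of the pathway lists moved by at most 0.17, at the relatives of the GLI factors, which had 0.22 and, at the 99th percentile, 0.05. The forkhead family turned from 0.01 to -0.03 with the mean of probesets, and the Hedgehog ligand list had -0.10 at the 99th percentile. The list between SMO and the GLI factors had 0.05 with the mean of probesets. Pdgfra was also set, by a choice made after seeing the data, against the 500 genes nearest in mean expression, of which 1.00% differed by as much. No paired analysis was possible because each condition has 1 array and the labels give no replicate numbers. Signal over background limits what can be said of Gli1 and Foxl1.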

Other observations

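Of the 14068 genes above background, 227 (1.61%) had exactly the same deposited value on both arrays. Examples are Dhh, the third Hedgehog ligand gene, at 5.92, and Sox6, a transcription factor gene of subepithelial cells rich in PDGFRA, at 8.30; none of the 10 genes was among them.

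Genes for inhibins and activins stand next to Gli1 and Gli2 on the chromosome. Inhbb, beside Gli2, read 7.45 on the stimulated and 7.29 on the non-stimulated array. Inhbc, near Gli1, read 5.76 on the stimulated and 5.59 on the non-stimulated array, and Inhbe, which lies between them, was under background on both arrays at 5.31 and 4.44 in the same order.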
